A study of Mus musculus with 6 samples.

Results

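The conjugation enzymes of the liver were taken as the genes whose symbol starts with Ugt or Sult and a digit, or with Gsta, Gstk, Gstm, Gstp, Gstt, Gsto or Gstz and a digit. The rule used gene names alone. It found 58 genes among the 21362 of the gene table, of which 21 encode glutathione transferases (GST), 21 UDP-glucuronosyltransferases (UGT) and 16 sulfotransferases (SULT). Liver RNA was sequenced in bulk from 6 Mettl14f/f males, whose Mettl14 alleles were floxed in both groups. All were placed on a high-fat diet (HFD) at 8 weeks of age, fed it for 10 weeks and then transduced with 1 of 2 AAV8 vectors, 3 mice with AAV8-TBG-GFP (the control, genotype WT in the labels) and 3 with AAV8-TBG-Cre (genotype METTL14 KO). The livers were taken 8 weeks after injection. By the study's methods, transduced mice stayed on the HFD until metabolic tests, and the diet up to this harvest is not stated. The TBG promoter is active in hepatocytes, so Cre was not directed to the other cells of the liver. METTL14 is a subunit of the methyltransferase that places m6A on mRNA. The groups are hereafter called GFP livers and Cre livers.

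Conjugation makes a lipid-soluble drug, hormone, bile acid or pigment soluble in water. UGT enzymes sit in the endoplasmic reticulum and transfer glucuronic acid from UDP-glucuronic acid, SULT enzymes of the cytosol transfer sulfate from PAPS, and GST enzymes join glutathione to electrophiles. The hepatocyte is the main site of all 3 reactions, and the conjugates leave it through ABC transporters towards bile or blood. The nuclear receptors CAR, PXR, PPARα and FXR and the factors AHR and NRF2 are known to control many of these genes.

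The libraries held 20356440 to 21010508 counts, and the 58 genes took 0.754% to 1.01% of them. The targeted gene Mettl14 had 124, 126 and 111 counts in the GFP livers and 104, 131 and 101 in the livers labelled AAV8-TBG-Cre, which corresponds to a difference of -0.29 on the log2 scale (SE 0.15, adjusted p = 0.337 by edgeR). In CPM the levels were 6.30, 6.43 and 5.81 against 4.96, 5.38 and 4.86, with no overlap and a lower level in the Cre livers. Mettl14 was not called in any of 16 alternative fits, so the groups are named here by their labels. The counts are of whole transcripts and do not show whether the floxed part was missing. The names of GFP replicates 1 and 2 and Cre replicate 1 are short and those of the other 3 libraries long, which no source explains. The log2 ratio of Mettl14 was -0.36 within the short names and -0.18 within the long ones, and the direction within each form is given likewise for the called members.

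Of the 58 genes, 57 had at least 1 count, and 43 had enough for the test, namely 19 GST, 16 UGT and 8 SULT genes. The 15 others were not tested. Among these are genes known from other tissues, such as Ugt2a1 and Ugt2a2 of the olfactory lining, Ugt8a of myelin-forming cells and Sult4a1 of the brain, and none of the 15 exceeded 1.53 CPM in any liver (CPM are counts per 1000000 of the library size after TMM scaling). Gstt4, Sult2a3 and Sult2a5 had under 3 counts in all 6 libraries together.

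Per unit of transcript length, the GST genes were the most abundant of the 3 groups. Their summed FPKM was 4635, 4472 and 3116 in the GFP livers, against 1562, 1522 and 1521 for the UGT and 484, 557 and 458 for the SULT genes. Few genes made up each sum. In the GFP livers Gstp1, the pi-class enzyme typical of male mouse liver, held 29.2% of the GST FPKM, and Gstm1 of the mu class, Gsta3 of the alpha class and Gstz1, which isomerises maleylacetoacetate in tyrosine breakdown, held 21.1%, 19.4% and 11.3%. Sult2a8, a sulfotransferase of bile acids, held 55.8% of the SULT FPKM and the phenol sulfotransferase Sult1a1 29.9%. The UGT sum was spread more evenly, over Ugt2b5 (19.1%), Ugt2b36 (16.9%), the bilirubin enzyme Ugt1a1 (12.4%) and Ugt3a2 (11.6%).

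The main comparison asked which of these genes differed between Cre and GFP livers. Lower levels prevailed among the UGT genes, where 7 of 16 fell and 0 rose. Of the 19 GST genes 2 fell and 1 rose, and of the 8 SULT genes 1 fell and 0 rose. In bulk RNA, fewer hepatocytes and less of these mRNAs per hepatocyte cannot be told apart. A gene is called here at the study's threshold, an unadjusted p under 0.05 and a fold of at least 1.2. Over all 13431 genes tested, 8.41% were called lower, 12.0% higher and 20.5% in either direction, so the UGT share of 43.8% called lower stood above the background, while those of the GST (10.5%) and SULT genes (12.5%) lay near it. The 7 UGT calls are not independent, because 4 are Ugt1a genes of 1 locus that share exons. With such related genes summed, the UGT features called lower were the Ugt1a locus, the Ugt3a pair and Ugt2b34, beside 8.41% of all 13420 features. A log2 fold change below 0 was found for 12 of the 16 UGT, 6 of the 8 SULT and 11 of the 19 GST genes, against 51.0% of all genes. The median log2 fold change was -0.31 for the UGT and -0.0065 for all genes, and it was -0.55 for the SULT genes, a value close to 0 when genes with few counts were added (-0.0015). For the GST genes it was -0.038 and turned positive with upper quartile scaling (0.029), with the form of the library name in the fit (0.0071) and on the log2(FPKM + 1) scale (0.089). The medians of all genes in these fits were 0.056, -0.0063 and 0.11, so with upper quartile scaling and on the FPKM scale the GST median stayed below that of all genes.

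None of the 43 genes had a Benjamini-Hochberg adjusted p under 0.05 by edgeR's quasi-likelihood test, which was passed by 0.447% of all genes tested in the lower direction, by 0.484% in the higher and by 0.931% in all. At an unadjusted p under 0.05 there were 11 members. DESeq2 gave an adjusted p under 0.05 to 9, all lower, and to 1157 of the 18416 genes in its fit, and limma on log2(FPKM + 1) to 0 members and 22 of 12138 genes. Without Cre replicate 1, edgeR gave it to 7 (Gstt1, Gstt3, Gstk1, Ugt1a5, Ugt1a6a, Sult1b1 and Sult1c2), and the genes called lower became 8 UGT, 5 GST and 4 SULT genes. In that fit 928 of 13678 genes passed the adjusted threshold and 12.5% were called lower. Without GFP replicate 3, 4 UGT genes were called lower, and 2 SULT genes were without that replicate, without GFP replicate 2 or without Cre replicate 3.

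**Figure D1:**
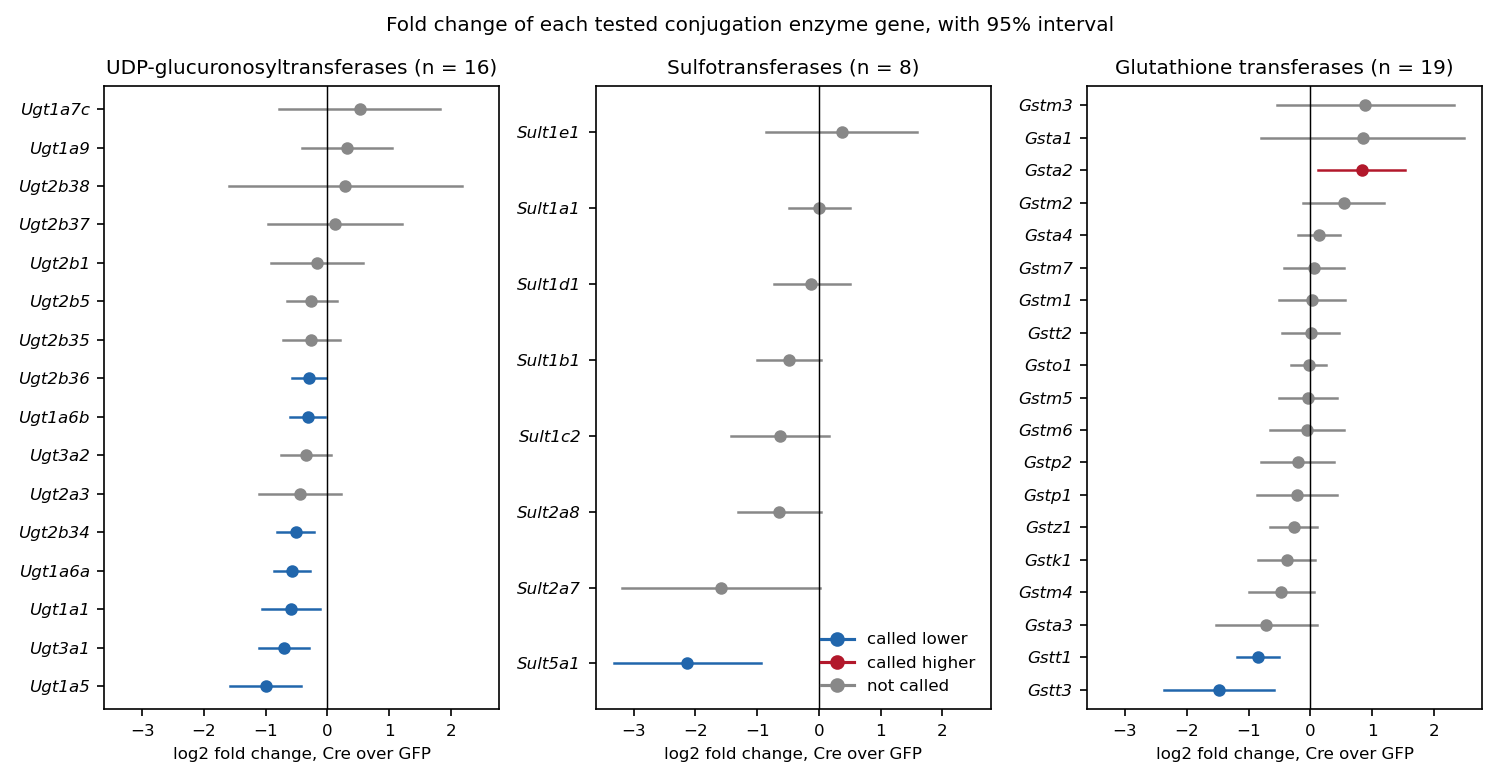
Log2 fold change between Cre and GFP livers for each tested gene (points, with 95% intervals from edgeR; n = 3 mice per group), in 3 panels by type of enzyme and ordered by fold change, in blue where called lower, in red where called higher and in grey otherwise. The 7 blue UGT genes lie between -0.30 and -1.0. The intervals of the 9 UGT genes and of the 16 GST genes in grey all cross 0.

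Among the 43 tested members, 10 had every Cre liver below every GFP liver in CPM, and these were the 10 genes that fell. Over all genes tested, called or not, 13.0% had this pattern. Every Cre liver was above every GFP liver in 14.0% of all genes and in none of the 43, and 27.0% had the one or the other. The calls rest on the same values, so the separation of the called genes adds no further support. The exact two-sided permutation test of 3 mice against 3 cannot give a p below 0.1. All 10 reached that value, as any gene with the groups apart does. With the groups apart, a lower level within the short names and within the long names follows for all 10 and is no further check. In all, 11 of the 16 tested UGT genes were lower within both forms. In FPKM, where the log2 fold change of the median gene was 0.11 in place of -0.0065, the groups stayed apart for 9 of the 10 and overlapped for Ugt2b36. On that scale limma called 4 UGT, 2 GST and 2 SULT genes lower and Gsta2 higher, while 365 of all genes were lower and 1880 higher, and with upper quartile scaling 8 members were lower and 1 higher beside 737 and 1922 of all genes.

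**Figure D2:**
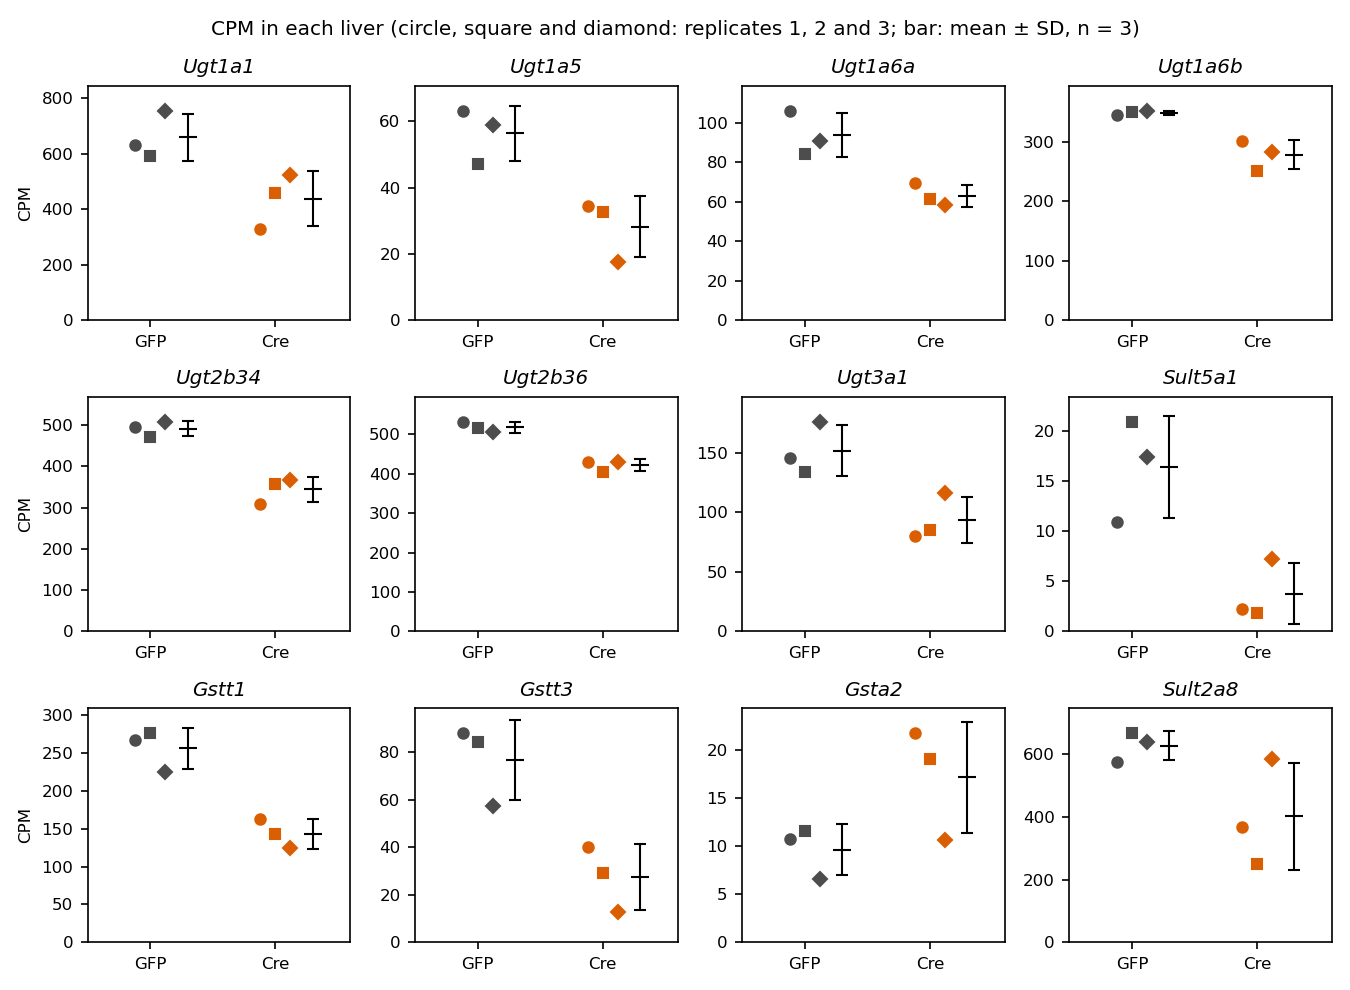
CPM of the 11 called genes and of Sult2a8 in each liver, with a linear axis from 0 in each panel (circle, square and diamond, replicates 1, 2 and 3; grey, GFP; orange, Cre; bars, mean ± SD, n = 3 mice). The groups are apart in the first 10 panels and overlap for Gsta2 and for Sult2a8, where Cre replicate 3 stood at 586 CPM.

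The UGT1A enzymes come from 1 locus on chromosome 1. Each gene has a first exon and promoter of its own and shares the last exons with the others, so that the enzymes differ in the part that binds the substrate. In RefSeq's GRCm38.p6 annotation (the build mm10) 7 of the 8 Ugt1a genes measured end at the same base, 88220002, and they start between 88055411 (Ugt1a10) and 88211959 (Ugt1a1). Since the first exons are read from separate promoters, the 300 bases around 4 of the starts (250 before and 50 after) are shown, for Ugt1a1, Ugt1a5 and Ugt1a6a, which fell, and Ugt1a9, which was not called. Capitals mark matches, on either strand, to the searched motifs TGACNNNGC (antioxidant response element), GCGTG (xenobiotic response element), GTTAATNAT (part of the HNF1 site), AGGTCA (recognition motif of nuclear receptors), TTCNNNGAA (STAT site) and TATAAA.
Ugt1a1, chr1:88211709-88212008, plus strand: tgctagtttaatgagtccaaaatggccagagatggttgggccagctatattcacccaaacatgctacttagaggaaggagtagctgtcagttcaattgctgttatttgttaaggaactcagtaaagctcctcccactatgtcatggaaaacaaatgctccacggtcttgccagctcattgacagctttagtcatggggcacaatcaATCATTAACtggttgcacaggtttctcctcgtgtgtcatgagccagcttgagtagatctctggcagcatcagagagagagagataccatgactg
Ugt1a5, chr1:88165762-88166061, plus strand: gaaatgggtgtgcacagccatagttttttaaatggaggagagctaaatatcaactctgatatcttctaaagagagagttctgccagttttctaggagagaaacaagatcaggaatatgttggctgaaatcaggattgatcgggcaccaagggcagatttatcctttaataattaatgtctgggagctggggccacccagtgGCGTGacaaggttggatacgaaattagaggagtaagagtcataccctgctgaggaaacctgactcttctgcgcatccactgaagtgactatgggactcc
Ugt1a6a, chr1:88134559-88134858, plus strand: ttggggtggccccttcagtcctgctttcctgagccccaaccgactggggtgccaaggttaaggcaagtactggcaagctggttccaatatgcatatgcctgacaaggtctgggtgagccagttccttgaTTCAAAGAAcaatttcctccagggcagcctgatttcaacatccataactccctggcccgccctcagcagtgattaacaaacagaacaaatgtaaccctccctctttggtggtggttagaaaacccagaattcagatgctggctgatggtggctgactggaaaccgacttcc
Ugt1a9, chr1:88070529-88070828, plus strand: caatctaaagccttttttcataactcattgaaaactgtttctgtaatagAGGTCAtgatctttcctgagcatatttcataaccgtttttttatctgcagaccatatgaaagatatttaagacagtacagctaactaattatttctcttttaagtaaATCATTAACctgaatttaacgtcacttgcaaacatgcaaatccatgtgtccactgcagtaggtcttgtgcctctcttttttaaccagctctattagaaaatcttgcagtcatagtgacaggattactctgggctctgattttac

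The windows of Ugt1a1 and Ugt1a9 hold a match to the HNF1 letters, which start at base -44 and -94 from the start of the gene, and Ugt1a5 a GCGTG at -49. In all, promoters were found for 50 of the 58 genes (61 windows). The HNF1 letters were in 9.84% of them and in 0.801% of all 32851 promoters of the table. They lay in the windows of Ugt1a1, Ugt1a9 and Ugt1a10 and of 3 SULT genes (Sult1d1, Sult2a3 and Sult2a5), which includes genes that fell, genes that were not called and genes hardly detected. The bases around the match are nearly alike in Ugt1a9 and Ugt1a10, and in Sult2a3 and Sult2a5, so these matches are not independent. The antioxidant letters were in 4.92% of the members' windows against 12.4% of all, in 3 GST genes (Gsta3, Gstm5 and Gstm7), none of which was called. In Gstm5 they overlap a GCGTG on the other strand. Of all promoters 32.4% held GCGTG, 16.3% AGGTCA, 8.3% TTCNNNGAA and 13.6% TATAAA, against 19.7%, 19.7%, 6.56% and 18% of the members' windows. These matches describe letters and not sites in use.

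Ugt1a1 conjugates bilirubin and is the most abundant of the locus per length. It stood at 630, 593 and 753 CPM in the GFP livers and at 330, 460 and 523 CPM in the Cre livers. This is a log2 fold change of -0.59 (SE 0.20, adjusted p = 0.160 by edgeR), and Cre replicate 1 was the lowest. Without Cre replicate 1 it was -0.42 and remained called, and without GFP replicate 3 it was -0.49 and was not.

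Ugt1a6a and Ugt1a6b encode enzymes of small planar phenols. For Ugt1a6a the levels were 106, 84.3 and 90.8 CPM with GFP and 69.4, 61.4 and 58.4 with Cre, a log2 fold change of -0.57 (SE 0.13, adjusted p = 0.0707). For Ugt1a6b they were 346, 350 and 352 CPM against 301, 252 and 284 (log2 fold change -0.32, SE 0.12, adjusted p = 0.193). The GFP livers were nearly alike for Ugt1a6b, with a coefficient of variation of 0.900%, against 8.92% in the Cre livers. On the log2(FPKM + 1) scale Ugt1a6b had a log2 fold change of -0.16 and was not called.

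Ugt1a5 had the largest drop among the UGT genes. It fell from 63.0, 47.1 and 58.9 CPM to 34.3, 32.7 and 17.6, a log2 fold change of -1.0 (SE 0.25, adjusted p = 0.0861). Cre replicate 3 was the lowest, and without it the value was -0.75. Ugt1a9 measured 18.3, 10.8 and 26.5 CPM against 17.1, 26.5 and 25.6, and its log2 fold change of 0.31 had a 95% interval from -0.41 to 1.04. Ugt1a2 had 0 counts in every GFP library and 0.334, 0.0821 and 0.0963 CPM with Cre, too few for the test.

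The authors' expected counts divide fragments of the shared exons between these genes by estimation. The sum over the 8 genes of the locus does not depend on that division. That sum was 1164, 1085 and 1282 CPM in the GFP livers and 752, 834 and 910 CPM in the Cre livers, a log2 fold change of -0.50 (SE 0.16, adjusted p = 0.136), and the groups did not overlap.

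The UGT2 enzymes, which conjugate steroids, bile acids and many drugs, lie in a cluster on chromosome 5. Of 8 tested, Ugt2b34 and Ugt2b36 fell. Ugt2b34 (chr5:86889770-86906937 in GRCm38.p6) stood at 494, 472 and 507 CPM with GFP and at 309, 358 and 366 with Cre, a log2 fold change of -0.51 (SE 0.13, adjusted p = 0.0882). Ugt2b36 stood at 531, 517 and 505 CPM against 430, 404 and 430. Its log2 fold change of -0.30 (SE 0.12, adjusted p = 0.218) was the smallest of the called genes, and on the log2(FPKM + 1) scale it was -0.13 and not called. Ugt2b5, the most abundant UGT gene per length, measured 573, 554 and 649 CPM against 426, 453 and 609. Cre replicate 3 overlapped the control livers, and the log2 fold change of -0.26 had a 95% interval from -0.66 to 0.15.

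Some Ugt2b genes are near copies of each other, and reads can be split between them. The stretch of 66 bases around the AGGTCA in the promoters of Ugt2b5, Ugt2b36, Ugt2b37 and Ugt2b38 is shown (GRCm38.p6, capitals mark AGGTCA). These stretches were placed on that motif and lie mostly before the start. They do not show how alike the transcripts are, from which the reads come.
Ugt2b5, chr5:87140327-87140392, minus strand: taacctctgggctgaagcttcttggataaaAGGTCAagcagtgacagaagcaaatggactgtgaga
Ugt2b36, chr5:87092545-87092610, minus strand: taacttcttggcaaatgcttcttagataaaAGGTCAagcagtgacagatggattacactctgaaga
Ugt2b37, chr5:87254792-87254857, minus strand: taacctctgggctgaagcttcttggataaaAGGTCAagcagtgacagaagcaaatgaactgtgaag
Ugt2b38, chr5:87424193-87424258, minus strand: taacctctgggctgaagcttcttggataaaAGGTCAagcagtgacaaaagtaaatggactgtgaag

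Against Ugt2b5, 47 of the 66 bases were the same in Ugt2b36, 63 in Ugt2b37 and 62 in Ugt2b38. All 4 hold AGGTCA within the first 39 bases before the start, a motif found in 7 of the 19 UGT windows. Ugt2b37 lay between 1.05 and 4.52 CPM and Ugt2b38 between 0.945 and 8.81 CPM in the 6 livers, with log2 fold changes of 0.12 (SE 0.46) and 0.29 (SE 0.81). The sum of the 4 genes was 1110, 1081 and 1159 CPM with GFP and 861, 862 and 1052 with Cre. The groups did not overlap, and the log2 fold change of the sum was -0.27 (SE 0.15, adjusted p = 0.363 by edgeR), which was not called.

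UGT3A enzymes are thought to use other sugars than glucuronic acid. Ugt3a1 fell from 146, 134 and 176 CPM to 80.2, 84.9 and 116 (log2 fold change -0.70, SE 0.18, adjusted p = 0.0881). Its neighbour on chromosome 15, Ugt3a2 (chr15:9335551-9370955, with Ugt3a1 at chr15:9279822-9315038 in GRCm38.p6), is the more abundant per length and measured 407, 420 and 420 CPM against 297, 274 and 410. Cre replicate 3 reached the control level there, and Ugt3a2 was not called (log2 fold change -0.35, 95% interval -0.75 to 0.06).

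Summed over all 21 genes, the UGT mRNA was 3875, 3819 and 4030 CPM in the GFP livers and 2864, 2767 and 3310 CPM in the Cre livers. In FPKM the sums were 1562, 1522 and 1521 against 1247, 1360 and 1386. The groups were apart on both scales.

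**Figure D3:**
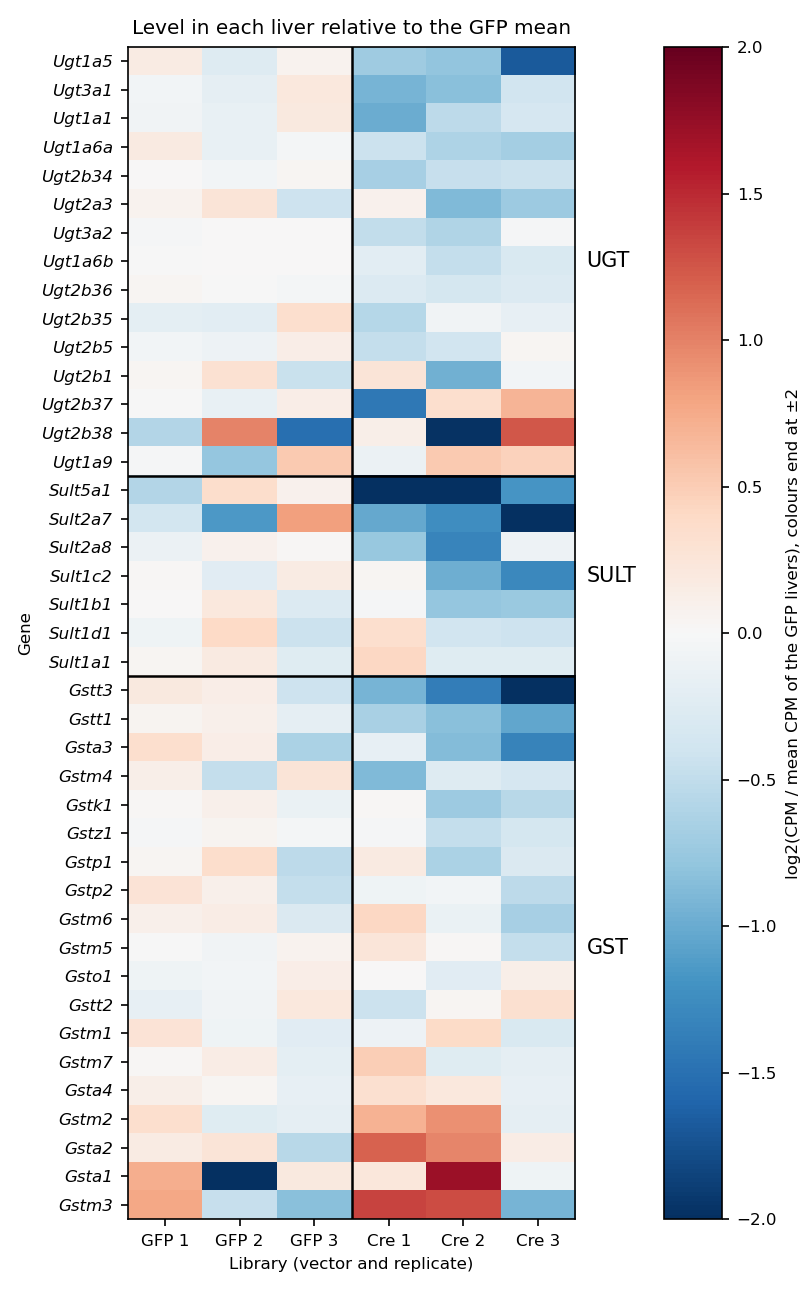
Log2 ratio of the CPM in each liver (columns) to the mean CPM of the 3 GFP livers, for the tested genes with a mean of at least 1 CPM (rows, by type of enzyme and fold change; blue, below the mean; red, above; colours end at ±2). In Cre replicates 1, 2 and 3, 12, 13 and 11 of the 15 UGT, 4, 7 and 7 of the 7 SULT and 8, 11 and 16 of the 19 GST genes are below that mean, and in GFP replicates 1, 2 and 3, 9, 10 and 5 UGT, 4, 2 and 3 SULT and 4, 8 and 14 GST genes.

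Among the sulfotransferases Sult5a1 fell. This enzyme is little studied and has no settled substrate. It had 10.9, 20.9 and 17.4 CPM with GFP and 2.20, 1.85 and 7.27 CPM with Cre, a log2 fold change of -2.13 (SE 0.51, adjusted p = 0.0821), the largest in size of the 43 genes. It was called in all 16 alternative fits, with values from -1.80 to -3.02.

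Sult2a8 carried most of the SULT mRNA of the GFP livers, per length. It stood at 575, 667 and 639 CPM in the GFP livers and at 369, 250 and 586 CPM in the Cre livers. Cre replicate 3 lay inside the control range, and the log2 fold change of -0.64 (SE 0.29, adjusted p = 0.255) was not called. It was called lower in 6 of 16 alternatives, namely with DESeq2 (-0.65), without the filter on counts (-0.65), with the replicate number as a block (-0.73), on the FPKM scale with either pseudocount (-0.55) and without Cre replicate 3 (-1.02). Its close relative Sult2a7 was near the detection limit, between 0.144 and 3.61 CPM.

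The other sulfotransferases of liver were not called. Sult1a1 measured 232, 257 and 192 CPM against 302, 192 and 191, with a log2 fold change of 0.0095 and a 95% interval from -0.48 to 0.50, and of -0.25 without Cre replicate 1. Sult1d1, an enzyme of catecholamines, measured 94.0, 131 and 73.7 CPM against 125, 76.1 and 74.8 (log2 fold change -0.12, 95% interval -0.73 to 0.50, and 0.05 on the log2(FPKM + 1) scale). Sult1b1, which sulfates thyroid hormones, measured 33.9, 39.1 and 27.8 CPM against 32.9, 19.6 and 20.1 (log2 fold change -0.48, 95% interval -1.0 to 0.04). In these 3 genes Cre replicate 1 was the highest of its group. The SULT sum was 955, 1123 and 962 CPM against 840, 547 and 882, and in FPKM the groups overlapped, at 484, 557 and 458 against 467, 352 and 452.

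Both glutathione transferase genes that fell belong to the theta class. Theta enzymes act on small halogenated compounds and on sulfate esters. Gstt1, the most abundant of them per length, stood at 267, 276 and 225 CPM with GFP and at 163, 143 and 124 CPM with Cre. Its log2 fold change of -0.84 (SE 0.15, adjusted p = 0.0520) had the smallest p of all 43 genes, and it lay between -0.67 and -0.94 over 16 alternative fits, with a call in each. Gstt3 fell from 88.1, 84.4 and 57.3 CPM to 40.3, 29.4 and 12.6 (log2 fold change -1.48, SE 0.38, adjusted p = 0.0921) and was likewise called in all 16. In both genes replicate 3 was the lowest of its group. The genes lie side by side on chromosome 10 (GRCm38.p6), Gstt3 at 75774117 to 75781422 and Gstt1 at 75783813 to 75798584, and the third member measured there, Gstt2 at 75831842 to 75837419, had 43.0, 45.6 and 55.2 CPM against 35.4, 49.5 and 60.1 (log2 fold change 0.01, SE 0.20). The theta sum was 398, 406 and 338 CPM against 238, 222 and 196.

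The 4 GST genes that hold most of the mRNA were not called in the edgeR test, and Gsta3 among them was called lower in 5 of 16 alternatives. Gstp1 measured 928, 1156 and 633 CPM against 1023, 583 and 738 (log2 fold change -0.21, 95% interval -0.87 to 0.44), and Gstm1 1423, 1110 and 1007 against 1094, 1542 and 960 (0.02, 95% interval -0.51 to 0.56, and -0.20 without Cre replicate 2). The intervals leave room for a change of over 1.2 times in either direction in both genes. Gsta3, which detoxifies aflatoxin epoxide in mice, ran from 1455, 1260 and 745 CPM to 1030, 629 and 458, with a log2 fold change of -0.71 (SE 0.35, adjusted p = 0.299). The groups overlapped, and the livers with long names were the lower ones in both. Within the short names the log2 ratio was -0.40 and within the long names -0.46. Gsta3 was called with DESeq2 (-0.72), with the replicate number as a block (-0.73), with short and long names fitted apart by a covariate (-0.43), without GFP replicate 3 (-0.95) and without Cre replicate 1 (-1.09). Gstz1 measured 807, 844 and 798 CPM against 807, 585 and 641 (log2 fold change -0.27, SE 0.16).

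Gsta2, an alpha-class enzyme that responds to inducers, was the only member called higher. It had 10.8, 11.6 and 6.6 CPM with GFP and 21.8, 19.1 and 10.7 CPM with Cre, a log2 fold change of 0.83 (SE 0.30, adjusted p = 0.180). Cre replicate 3 overlapped the control livers, and the call was lost without Cre replicate 1 (0.62), without Cre replicate 2 (0.74) or without GFP replicate 3 (0.61). The log2 ratio was 0.96 within the short names and 1.17 within the long names. Gsta1, its close relative, ranged from 1.07 to 17.5 CPM. The sum of Gsta1 and Gsta2 was 19.6, 12.7 and 12.7 CPM against 28, 36.6 and 15.7, and was called higher (log2 fold change 0.84, SE 0.31, adjusted p = 0.188). With the related genes Gm3776 and Gm10639 added as well, a choice made after seeing the data, the sum was 24.4, 17.8 and 17.0 CPM against 29.3, 53.9 and 19.3, with a log2 fold change of 0.79 (SE 0.35, adjusted p = 0.249 by edgeR), which was not called. The highest fold change among the GST genes was that of Gstm3, at 58.4, 24.7 and 19.1 CPM against 87.2, 84.3 and 17.8 (0.89, SE 0.61), and Cre replicate 3 was the lowest of all 6 livers. Without Cre replicate 3, Gstm2 and Gstm3 were called higher along with Gsta2. The GST sum was 5601, 5297 and 4019 CPM against 4857, 4139 and 3428, and the groups overlapped.

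The genes around the enzymes were read from lists, in the same fit. The lists were chosen with earlier results of these data known, so their counts beside the share over all genes are descriptive. Of 16 regulators, 4 fell and 0 rose, beside 8.41% lower over all genes, and the 4 are nuclear receptors that act as sensors of drugs, fatty acids and bile acids. Nr1i3, which encodes CAR, had 181, 165 and 194 CPM in the GFP livers and 84.7, 117 and 88.0 CPM in the Cre livers. Its log2 fold change was -0.90 (SE 0.15, adjusted p = 0.0491), with a call in all 16 alternative fits and an adjusted p between 2.17e-05 and 0.198. Nr1i2 (PXR), Ppara and Nr1h4 (FXR) had log2 fold changes of -0.49, -0.52 and -0.48, with adjusted p of 0.162, 0.0970 and 0.147. The call of Nr1i2 was lost in 6 of 16 alternatives, and those of Ppara and Nr1h4 in 0. Ahr (-0.04, SE 0.32), Nfe2l2 (0.10, SE 0.15) and Hnf4a (0.07, SE 0.19) were not called.

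The called targets of these factors did not share a direction. Among all genes, 8.41% were called lower and 12.0% higher. Of 8 targets of CAR, PXR and AHR, 6 had a log2 fold change below 0 and 2 above, with a median of -0.27. Cyp1a2 fell (-0.77, SE 0.15, adjusted p = 0.0611 by edgeR) and Cyp3a11 rose (1.28, SE 0.44, adjusted p = 0.161). Cyp3a11 had 547, 283 and 721 CPM against 687, 1887 and 1185, so its groups overlapped, and its call was lost in 3 of 16 alternatives. Any effect of the receptors on these targets was not tested. Cyp2b10, the classical CAR target, had 4.12, 5.15 and 0.314 CPM against 1.62, 0.534 and 0.481, and its groups overlapped. Of 11 NRF2 targets outside the 3 enzyme groups, Hmox1 (log2 fold change 1.22), G6pdx (1.03) and the cystine transporter Slc7a11 (4.31) rose, and Me1, the malic enzyme of lipogenesis, fell (-1.21, SE 0.14, adjusted p = 0.0330). Hmox1 had 25.1, 26.4 and 30 CPM against 25.5, 96.5 and 68.1, so Cre replicate 1 stood within the GFP range. Its log2 ratio was -0.01 within the short names and 1.46 within the long names, and its call was lost in 4 of 16 alternatives, with values down to 0.73. Slc7a11 was at 0.152, 0.153 and 0.105 CPM against 0.477, 7.23 and 0.674, so Cre replicate 2 set its value, and without Cre replicate 2 the log2 fold change was 2.02. Nqo1 had a log2 fold change of 0.0025 (SE 0.35).

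**Figure D4:**
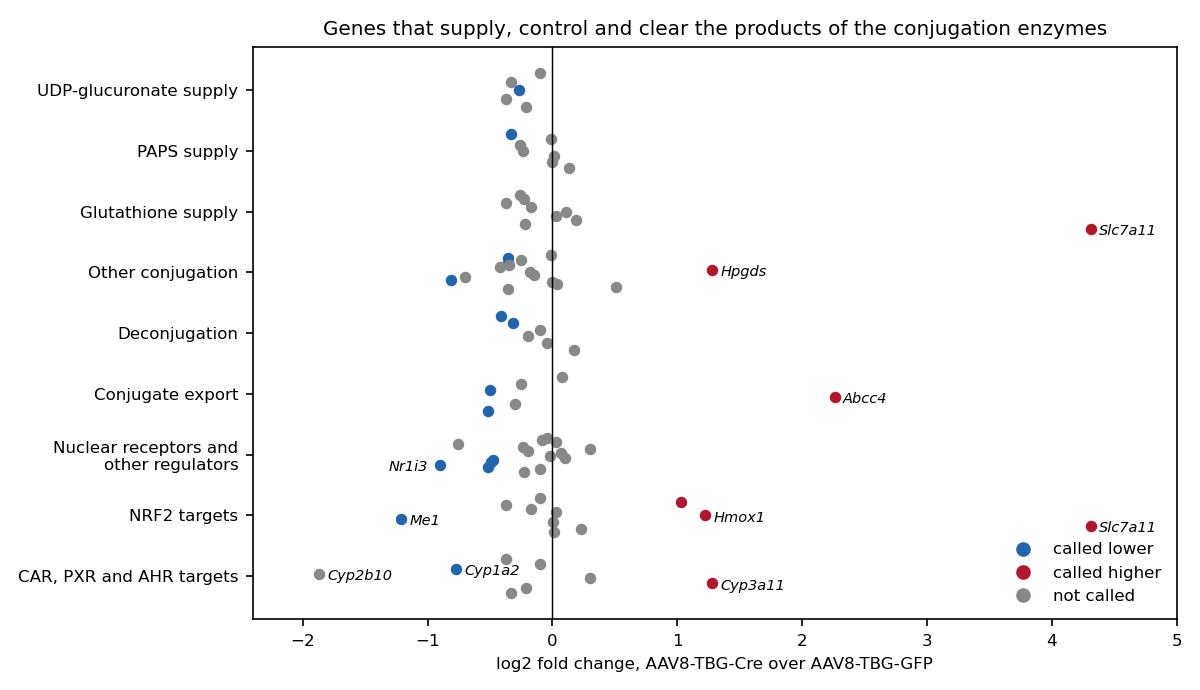
Log2 fold change between Cre and GFP livers for the tested genes of 9 lists around the conjugation enzymes (points by list; blue, called lower; red, called higher; grey, not called; selected genes are named, and Slc7a11 belongs to 2 lists). Me1 at -1.21 and Nr1i3 at -0.90 are the lowest of the called genes.

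In each list of co-substrate supply 1 gene was called, where 8.41% of all genes were called lower and 12.0% higher. Of 5 genes for UDP-glucuronic acid, Slc35d1, which carries it into the endoplasmic reticulum, fell (66.9, 69.6 and 73.4 CPM against 62.8, 55.3 and 55.7, log2 fold change -0.27, SE 0.10), and Ugdh, which makes it, measured 164, 147 and 177 CPM against 100, 154 and 124 and was not called. Of 7 genes for PAPS, Bpnt1, which degrades the spent cofactor, fell (-0.33, SE 0.13). Of the 9 tested genes for glutathione, Slc7a11 was called and Gclc (-0.37, SE 0.27) was not. On the export side Abcc3 (MRP3), which sends glucuronides to the blood, fell from 371, 390 and 521 CPM to 234, 356 and 314, and Abcg2, a carrier of sulfates, from 83.3, 85.5 and 92.0 to 46.4, 63.7 and 71.3. Abcc4 (MRP4) rose from 2.13, 1.99 and 1.36 CPM to 4.53, 17.3 and 4.38, with a log2 fold change of 2.26 (SE 0.58, adjusted p = 0.0903). Of 16 alternatives, 10 lost the call of Slc35d1, 8 that of Abcc3, 7 that of Bpnt1, 3 that of Abcg2 and 0 that of Abcc4.

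Of 15 tested conjugating enzymes outside the 3 groups, Nat1, Glyat and Baat fell and Hpgds rose, and of 6 hydrolases Arsa and Arsb fell. The background, for these and the sex-biased lists below, was 8.41% of all genes called lower and 12.0% higher. Baat joins bile acids to taurine and glycine, and had a log2 fold change of -0.36 (SE 0.15). Hpgds, the sigma-class GST that makes prostaglandin D2 and is found in macrophages, rose from 1.42, 0.918 and 1.2 CPM to 1.48, 4.11 and 3.03. Of 16 alternatives, the calls of Glyat and Arsa were lost in 9, that of Arsb in 8, that of Baat in 7 and that of Nat1 in 6, and the call of Hpgds was lost in 2 of 14. Many GST, SULT and UGT genes differ between the sexes in mice, and all 6 mice were male. Of 8 male-biased liver genes 2 fell (Elovl3 and Hsd3b5) and 1 rose (Cyp4a12b), and of 4 tested female-biased genes 2 fell (Cyp2b9 and Cyp2b13).

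Most cholangiocyte and macrophage markers were called higher in the Cre livers, and the other cell types were mixed or little called. Beside this, 12.0% of all genes were called higher and 8.41% lower. All 9 cholangiocyte markers rose, and their sum went from 51.7 to 106 CPM in the GFP livers to 279 to 558 CPM in the Cre livers. Of 10 macrophage markers 7 rose (sum 183 to 206 against 269 to 392 CPM), and of 8 endothelial markers 1 fell (156 to 248 against 158 to 191 CPM). All 8 endothelial markers had a log2 fold change below 0, with a median of -0.29. The 9 stellate cell markers were split, with a sum of 239 to 366 against 467 to 972 CPM. The 3 collagens Col1a1, Col1a2 and Col3a1 rose, as did Pdgfrb, and 5 were not called. Of the 5, Acta2 (log2 fold change -0.37), Lrat (-0.25) and Reln (-0.10) were below 0 and Des (0.13) and Dcn (0.38) above. Lymphocyte markers were scarce, with 2 of the 3 tested higher (2.98 to 4.03 against 4.33 to 8.87 CPM), and of 4 tested neutrophil markers 2 were higher and 1 lower (11.2 to 11.9 against 11 to 15.3 CPM). Of 10 hepatocyte markers Ttr fell and Cps1 rose, their median log2 fold change was -0.099, and their sum was 105444 to 125146 CPM against 90126 to 110958 CPM. The defining markers Alb, Hnf4a, Spp1, Epcam, Csf1r and Col1a1 were above 0 in both groups. The part of the other cells in the values above was not tested.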

How the data were processed

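Liver RNA of 6 mice was sequenced by the authors on a DNBseq platform. The authors deposited RSEM-style expected counts per transcript (estimated counts, 45.4% of them whole numbers) and FPKM per transcript and per gene. The submitters' processing notes name HISAT2, Bowtie2, RSEM and mm10, and the study's methods name STAR, HTSeq and DESeq2, with no versions, so which aligner made these files is not certain. The transcripts of a gene were added and the total rounded to whole counts. Such a sum does not depend on how reads were shared among its transcripts, but reads common to near-identical genes were divided by estimation.

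Counts were tested with edgeR 4.0.16 in R 4.3.3 (filterByExpr, TMM, quasi-likelihood fit, vector as the only term, 3 mice per group), with p-values adjusted over all 13431 genes by the Benjamini-Hochberg method. The method had been tested on simulated data. CPM used the TMM-scaled library sizes. DESeq2 1.42.0, limma 3.58.1 on log2(FPKM + 1), other scalings and filters, a fit with the replicate number as a block and fits without each mouse were alternatives. SE is that of the log2 fold change. The labels do not say how the mice were allocated, and p-values measure the spread between these 6 livers. No 2 libraries of the same group differed by as little as sampling noise (smallest chi-square per gene 26.5).

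Named in the text were members called at the threshold, the 4 with the highest mean FPKM and the extremes of fold change per enzyme group among members with a mean of at least 1 CPM, and called genes of the lists. Other members and genes (such as Ugt1a2, Ugt2b37, Gstt2, Sult2a7, Gsta1, Ahr and Ugdh) were named after their values were seen. The members and lists were chosen with earlier results of these data known. Sequences and coordinates are from RefSeq's GRCm38.p6.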

Additional observations from a re-analysis of the deposited data

How the results depend on the processing

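The calls of Gstt1, Gstt3, Sult5a1, Ugt1a5, Ugt1a6a, Ugt2b34 and Ugt3a1 held in all 16 alternatives, whereas those of Ugt2b36, Ugt1a6b, Ugt1a1 and Gsta2 were lost in 12, 9, 4 and, with 1 alternative more that was added after seeing the data, 4. Over 23 named members 306 alternative values kept direction and side of the threshold, 29 lost and 20 gained a call and 14 changed sign, and the called genes of the lists with Mettl14 kept 264 and lost 83. With DESeq2, 2 UGT genes were called higher and 3 SULT genes lower, the SULT median was 0.0002 and 9 members passed the adjusted threshold. Upper quartile scaling gave a GST median of 0.029, beside 0.056 for all genes. Without the filter on low counts, 2 UGT and 1 SULT genes were called higher and 4 SULT genes lower, the SULT median was -0.0015, 1 member passed the adjusted threshold (Gstt1) and Sult1a1 was at -0.00. With the form of the library name in the fit, 4 GST and 2 SULT genes were called lower, the GST median was 0.0071, 2 members passed the adjusted threshold, Gstp1 was at 0.02 and Sult1d1 at 0.09. In limma on FPKM with a pseudocount of 1 or 0.1, 4 UGT and 2 SULT genes were called lower, the UGT median was -0.16, the GST median 0.089 or 0.095 and Sult1d1 was at 0.05, and without a filter these were 4 UGT genes, medians of -0.09 (UGT), 0.056 (GST) and 0.032 (SULT) and again 0.05. The medians of all genes in these limma fits were 0.11 (pseudocount 1), 0.14 (pseudocount 0.1) and 0.066 (no filter). With paralogs summed, or with a fold of 1.5, 3 UGT features were called lower. The cause of these shifts was not tested, apart from the fewer features in the summed fit and the low-count genes that the filter removes.

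Leaving out 1 mouse at a time gave 0 to 3 GST genes called higher and 2 to 5 lower, 0 to 1 UGT genes higher and 4 to 8 lower, UGT medians of -0.43 to -0.26, 1 to 4 SULT genes lower and 0 to 7 members past the adjusted threshold. Gstm1 ranged from -0.20 to 0.17, Sult1a1 from -0.25 to 0.12 and Sult1d1 from -0.40 to 0.13 across these fits.

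With the replicate block, 12 members were called lower, 9 of them in common with the fit without it, including 3 SULT genes, and Sult1a1 was at -0.01. Same-numbered mice did not deviate together (correlations 0.00915, -0.263 and 0.209), and replicate 3 alone correlated best with its own number, so the numbers were not taken to pair the mice. The effect of depth was not tested, and the 15 genes with too few counts were left out of the main test.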

Other observations

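In median, the spread within the Cre livers was wider than within the GFP livers, a difference that was not tested. It was not shown to be particular to these genes. Between pairs of livers, the chi-square per gene over all genes with enough counts was 93.6, 105 and 65.9 for Cre and 26.5, 46.9 and 80.1 for GFP. The median coefficient of variation of CPM over the tested members, Cre against GFP, was 22.4% against 13.6% for the UGT, 40.2% against 23.0% for the SULT and 28.3% against 18.3% for the GST genes. The lowest of the 6 livers was Cre replicate 1 for 7 of the UGT genes, Cre replicate 2 for 6, Cre replicate 3 for 2 and GFP replicate 2 for 1. For the GST genes it was Cre replicate 3 most often, in 8 of 19.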
